A study of Mus musculus with 4 samples.

Results

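The genes described here are 5 members of the mouse haemoglobin families: the embryonic beta-like globins Hbb-y and Hbb-bh1, the embryonic alpha-like globin Hba-x, the adult beta globin Hbb-bt and the adult alpha globin Hba-a1. They were taken by name, and 9 of 41174 probes on the array carried a RefSeq accession of these 5 genes, which stood among 21986 genes tested. Their transcripts were measured in whole gonads of wild type male mouse embryos on embryonic day 12.5 (E12.5), day 13.5 (E13.5), day 14.5 (E14.5) or day 15.5 (E15.5). All 4 groups were of the mouse line named MCH in the labels, with no treatment, transgene or allele other than wild type. Each stage had 2 arrays, described in the series text as biological duplicates, and p-values therefore measure only the spread between these duplicates. How many embryos were pooled for an array is not given in the sources used here, and the protocols in the labels describe no step that removes blood from the dissected gonads.

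A haemoglobin molecule joins alpha-like with beta-like globin chains, each holding a heme group, and is made almost wholly in red blood cells. In the mouse embryo a primitive wave of red cells arises in the yolk sac and makes the embryonic chains, and a definitive wave from the fetal liver makes the adult chains and comes to fill the circulation. Primitive cells also change their globins as they mature, with Hbb-bh1 giving way to Hbb-y and Hba-x to adult alpha globin. The gonad makes no red cells, so globin transcripts in whole gonads are usually read as those of blood within its vessels.

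The members belong to clusters in which genes stand side by side. On chromosome 7 the order in the RefSeq annotation of GRCm38.p6 was Hbb-bh0, Hbb-b1, Hbb-b2, Hbb-bt, Hbb-bs, Hbb-bh3, Hbb-bh2, Hbb-bh1 and Hbb-y. On chromosome 11 it was Hba-x, Hba-a1, Hbq1b, Hba-a2 and Hbq1a. The promoters are shown because neighbouring genes of a cluster moved in different ways in these arrays, and because their DNA can be set side by side. The RefSeq promoter table (GRCm38.p6) held 4 of the 5 members, and the 250 bases before each start site are printed 5′ to 3′ on the strand of the gene. Capitals mark 5 motifs. CACCC is the site of the Krüppel-like factors and was searched on both strands. The CCAAT box reads ATTGG where it lies on the other strand. GATA, the site of the factors of that name, reads TATC on the other strand. TGACCA was searched on both strands. The letters ATAA were also searched on both strands, but only between 40 and 21 bases before the start.
Hbb-y, chr7:103853208-103853457, minus strand: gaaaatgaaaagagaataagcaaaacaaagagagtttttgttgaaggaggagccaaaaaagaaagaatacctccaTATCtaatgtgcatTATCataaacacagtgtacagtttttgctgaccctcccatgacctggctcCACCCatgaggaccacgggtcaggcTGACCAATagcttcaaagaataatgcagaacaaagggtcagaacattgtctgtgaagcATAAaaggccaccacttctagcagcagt
Hba-x, chr11:32276350-32276599, plus strand: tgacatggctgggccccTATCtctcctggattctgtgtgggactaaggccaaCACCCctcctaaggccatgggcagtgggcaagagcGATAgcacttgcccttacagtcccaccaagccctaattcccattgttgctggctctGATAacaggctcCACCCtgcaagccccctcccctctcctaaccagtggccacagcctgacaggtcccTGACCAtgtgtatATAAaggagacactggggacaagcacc
Hbb-bt, chr7:103813924-103814173, minus strand: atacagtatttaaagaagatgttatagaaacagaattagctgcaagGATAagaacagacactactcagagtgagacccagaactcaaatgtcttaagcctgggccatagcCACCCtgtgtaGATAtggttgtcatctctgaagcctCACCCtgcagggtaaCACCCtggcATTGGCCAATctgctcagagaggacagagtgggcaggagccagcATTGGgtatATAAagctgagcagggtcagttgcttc
Hba-a1, chr11:32283422-32283671, plus strand: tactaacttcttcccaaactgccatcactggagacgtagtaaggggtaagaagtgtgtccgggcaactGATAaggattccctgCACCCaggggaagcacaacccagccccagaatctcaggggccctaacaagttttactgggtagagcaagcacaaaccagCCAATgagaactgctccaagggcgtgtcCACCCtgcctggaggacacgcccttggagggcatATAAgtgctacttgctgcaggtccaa

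All 4 promoters held CACCC, and this was in 52.0% of the 32851 promoters of that length in the table, and all 4 held GATA, found in 53.6%. ATAA in its window, a TATA box sequence, was on the strand of the gene in all 4 members. On either strand it was in 11.1% of all promoters. The letters CCAAT were in Hbb-y, Hbb-bt and Hba-a1 and in 33.8% of all promoters, and their forward match in Hbb-y overlapped the TGACCA match. TGACCA, a sequence of sites for nuclear receptors, was in the embryonic Hbb-y and Hba-x and in 11.4% of all promoters. In Hbb-y it ended 81 bases before the start, and in Hba-x 35 bases before it. These are matches of letters, and no binding was measured.

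The arrays were 1-colour Agilent arrays, and every level below is log2 of the processed signal minus the 75th percentile of that array, so that 0 is the 75th percentile. Between 24810 and 28724 of 41174 probes per array were well above background. All 12 gonad markers, of Sertoli, Leydig, germ and somatic gonad cells, were well above background on all 8 arrays. Arrays 1 of E12.5 and E13.5 shared slide 1, arrays 2 of both shared slide 2, and all E14.5 and E15.5 arrays lay on slide 3, which was scanned in another session and read with another software version. Slides 1 and 2 thus each hold an E13.5 and an E12.5 array, and slide 3 holds the whole of E15.5 and E14.5. Between a stage on slide 3 and a stage on slides 1 and 2, slide and stage cannot be told apart. In whole tissue, fewer cells of a type and less RNA per cell cannot be told apart.

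Hbb-y, the epsilon-like embryonic chain that primitive red cells carry longest, had log2 levels of 6.76 and 6.89 at E12.5, 5.67 and 5.24 at E13.5, 3.37 and 3.95 at E14.5, and 0.57 and -0.47 at E15.5. Both arrays of each stage lay below both arrays of the stage before, and the duplicates were farthest apart at E15.5. Over the whole span the change was -6.77 ± 0.38 log2 units (limma, adjusted p = 0.000153), a level 109-fold lower at E15.5 than at E12.5. On the linear scale the scanner signal of the probe was 2645 and 1073 at E15.5, against 113612 and 94855 at E12.5.

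Hbb-bh1, the embryonic beta-like chain that primitive red cells make early, had log2 levels of 3.74 and 4.06 at E12.5, 2.09 and 1.73 at E13.5, -0.53 and -0.14 at E14.5, and -3.09 and -3.60 at E15.5. No stage overlapped its neighbour, and the duplicates of a stage stood much closer together than the stages did. The change over the span was -7.24 ± 0.27 (limma, adjusted p = 6.19e-05), or 151-fold lower at E15.5 than at E12.5. The other Hbb-bh1 probe, A_52_P305876, changed by -6.75 ± 0.27 over the span (limma, adjusted p = 6.94e-05).

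Hba-x, the zeta-like embryonic alpha chain, had log2 levels of 3.30 and 3.78 at E12.5, 2.12 and 2.16 at E13.5, 0.24 and 0.45 at E14.5, and -2.01 and -2.40 at E15.5. Again every stage lay wholly below the stage before it. The change over the span was -5.75 ± 0.24 (limma, adjusted p = 8.25e-05), or 53.7-fold lower at E15.5 than at E12.5.

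Hbb-bt, an adult beta chain, had log2 levels of 6.86 and 6.77 at E12.5, 7.31 and 7.60 at E13.5, 8.10 and 7.87 at E14.5, and 7.97 and 8.25 at E15.5. The E13.5 arrays lay above those of E12.5 and the E14.5 arrays above those of E13.5, while E14.5 and E15.5 overlapped. Hbb-bt rose by 1.29 ± 0.21 over the span (limma, adjusted p = 0.00474), which is 2.45-fold higher at E15.5 than at E12.5. None of its 3 daily steps was called, with changes of 0.64 ± 0.21 at E13.5 against E12.5 (adjusted p = 0.174), 0.53 ± 0.21 at E14.5 against E13.5 (adjusted p = 0.134) and 0.12 ± 0.21 at E15.5 against E14.5 (adjusted p = 1), all by limma. Under quantile scaling the step at E14.5 against E13.5 was 1.21 and was called higher (limma, adjusted p = 0.0307), and over its other alternatives the adjusted p lay between 0.0578 and 0.727.

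Hba-a1, an adult alpha chain, had log2 levels of 7.26 and 8.39 at E12.5, 7.14 and 8.09 at E13.5, 7.53 and 7.35 at E14.5, and 7.51 and 7.64 at E15.5. All stages overlapped, and the order of their means (E12.5, E13.5, E15.5, E14.5 from the highest) did not exceed the spread of the duplicates. The array on slide 2 exceeded that on slide 1 by 1.13 at E12.5 and by 0.95 at E13.5. Such a gap or a larger one, in that direction at both stages, was seen in 226 of 21986 genes (1.03%). Within slides Hba-a1 differed by -0.12 on slide 1 and by -0.30 on slide 2 between E13.5 and E12.5. Over the span the change was -0.25 ± 0.44 (limma, adjusted p = 0.679). It was 0.31 without array 2 of E12.5, and 0.76 under quantile scaling (adjusted p = 0.0216), so its sign is not settled by these arrays.

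**Figure D1:**
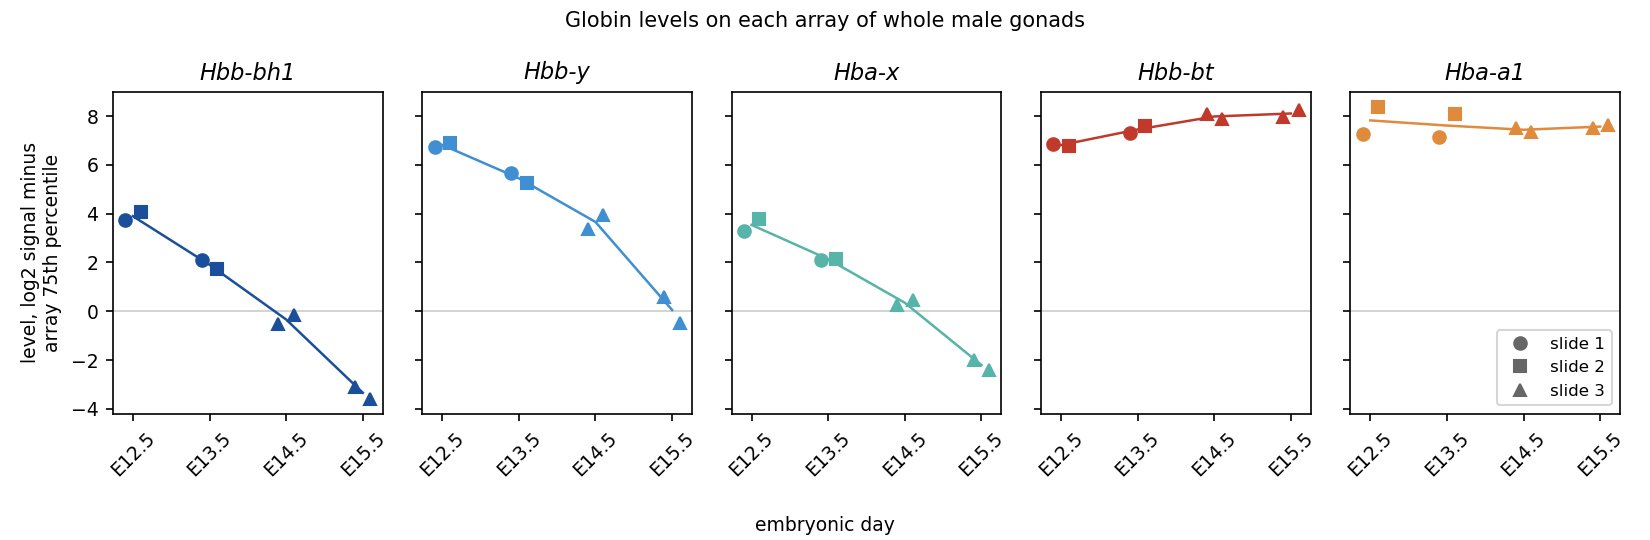
Level of each globin gene (log2 signal minus the array's 75th percentile, vertical axis) on each of the 8 arrays by embryonic day, with symbols for the slide and a line through the stage means. Hbb-bh1, Hbb-y and Hba-x step down at every stage, Hbb-bt ends 1.29 above its E12.5 mean, and Hba-a1 splits by slide at E12.5 and E13.5.

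The probes of the adult genes can also catch near-identical neighbours. No probe was named for Hbb-bs, Hbb-b1, Hbb-b2 or Hba-a2, and no probe sequence was used here, so the Hbb-bt and Hba-a1 signals may include the transcripts of those copies. All 9 probes were well above background on all 8 arrays, and none was saturated. The probes used for Hbb-bt and Hba-a1 were read from the low-gain scan on all 8 arrays. Hbb-y was read from that scan on 5 arrays, those of E12.5 and E13.5 and array 2 of E14.5, and the part of the change of scan in its steps was not tested.

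At E13.5 against E12.5, Hbb-bh1 fell by 1.99 ± 0.27 (limma, adjusted p = 0.0148) and Hba-x by 1.40 ± 0.24 (limma, adjusted p = 0.0318). Hbb-y differed by -1.37 ± 0.38 (limma, adjusted p = 0.123), and Hba-a1 by -0.21 ± 0.44 (limma, adjusted p = 0.911). So 2 of 5 members were called lower, against 1.30% of all genes tested, and 0 of 5 higher, against 2.68%. In 3 of 5 the E13.5 arrays lay wholly below the E12.5 arrays, against 29.0% of all genes, and in Hbb-bt wholly above, against 22.3%. This day can be read within slides. On slide 1 the difference was -1.65 for Hbb-bh1, -1.09 for Hbb-y and -1.18 for Hba-x, and on slide 2 it was -2.33, -1.64 and -1.63 in the same order. Both slides gave the same direction for all 3 embryonic globins, and a larger difference on slide 2. The Hbb-bh1 call was lost without array 2 of E12.5 (adjusted p = 0.0878), array 1 of E13.5 (0.0576) or array 2 of E13.5 (0.0995), by limma. The Hba-x call was lost without any array other than array 1 of E12.5, and the change then lay between -1.43 and -1.16.

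At E14.5 against E13.5, all 3 embryonic globins fell: Hbb-bh1 by 2.25 ± 0.27 (limma, adjusted p = 0.00932), Hbb-y by 1.79 ± 0.38 (limma, adjusted p = 0.0334) and Hba-x by 1.79 ± 0.24 (limma, adjusted p = 0.0122). Hba-a1 differed by -0.17 ± 0.44 (limma, adjusted p = 0.813). This made 3 of 5 members called lower, against 6.04% of all genes, and 0 of 5 higher, against 6.44%. The same 3 had E14.5 arrays wholly below the E13.5 arrays, against 30.8% of all genes, and Hbb-bt had them wholly above, against 29.2%. This step runs across slides. The Hbb-y call was lost without any array of E12.5, E13.5 or E14.5, and the change then lay between -2.08 and -1.50. It was also lost with the normexp background (limma, adjusted p = 0.167), with no filter (0.0741) or under quantile scaling (0.059). With the array number as a replicate block (0.0541) or only the arrays compared (0.0505), Hbb-y also lost its call. That of Hbb-bh1 was lost without array 1 of E13.5 (0.051) or of E14.5 (0.0518), and that of Hba-x without array 1 of E13.5 (0.0584), array 2 of E13.5 (0.0695) or array 1 of E14.5 (0.0625).

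At E15.5 against E14.5, within slide 3, Hbb-y fell by 3.61 ± 0.38 (limma, adjusted p = 0.0197), and Hba-x by 2.55 ± 0.24 (limma, adjusted p = 0.0161). These are 12.2-fold and 5.87-fold lower levels at E15.5. Hbb-bh1 was 8.02-fold lower at E15.5, with a standard error of 0.27 on the log2 scale (limma, adjusted p = 0.015). The log2 difference of Hba-a1 was 0.13 ± 0.44 (limma, adjusted p = 1). Few genes were called lower on this day: 21 of 21986 genes (0.0955%), and 3 of the 21 were the embryonic globins. No member was called higher, against 0.559% of all genes. Without overlap, E15.5 lay below E14.5 in 3 of 5 members and in 16.6% of all genes, and above it in 0 of 5 members and in 19.8% of all genes. All 3 calls were lost without array 1 or array 2 of E14.5 or array 2 of E15.5 (limma, adjusted p from 0.0876 to 0.138), and those of Hbb-bh1 and Hba-x also without array 1 of E15.5 (0.051 and 0.0535). Over these fits the change lay between -4.13 and -3.09 for Hbb-y, between -3.26 and -2.75 for Hbb-bh1 and between -2.75 and -2.36 for Hba-x.

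Over the whole span, E15.5 against E12.5, 3 of 5 members were called lower, against 17.4% of all genes, and 1 of 5 was called higher, against 17.6%. The arrays did not overlap for the same 4 members, where 39.3% of all genes were lower and 34.7% higher without overlap. The span shares its arrays with the daily steps and is no separate evidence for them. These 4 calls held without each of the 8 arrays in turn, with adjusted p by limma of at most 0.00154 for the embryonic globins and of at most 0.0407 for Hbb-bt. Of all genes, 462 (2.10%) had arrays at every stage wholly below those of the stage before, among them the 3 embryonic globins. Only 2 genes of 21986 (0.00910%) were called lower at all 3 daily steps, and these were Hbb-bh1 and Hba-x.

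**Figure D2:**
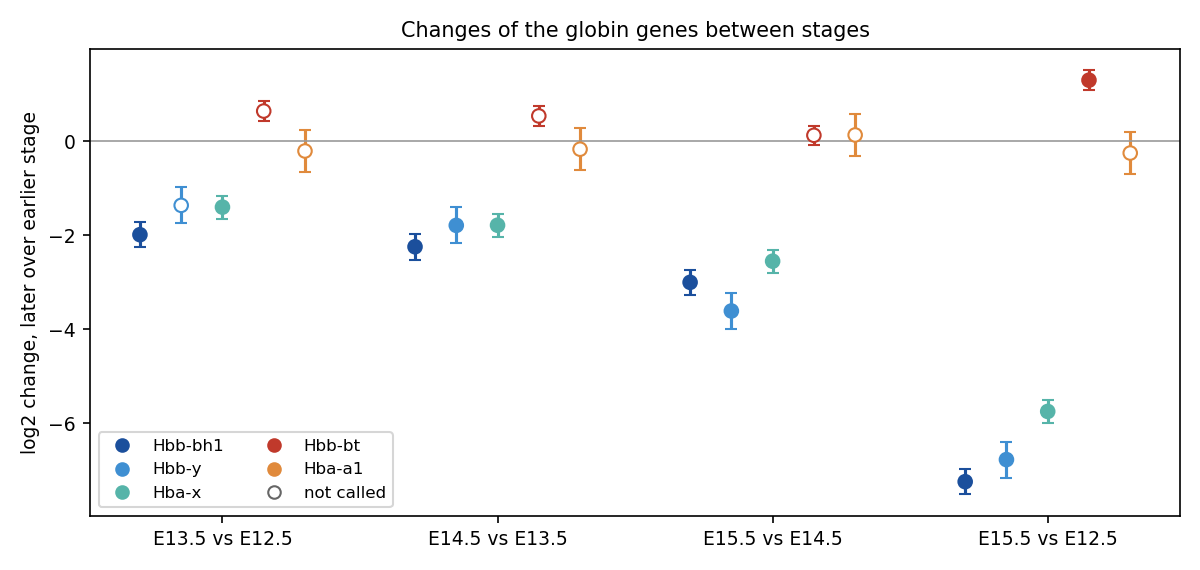
Change of each globin gene (log2, later over earlier stage, vertical axis) in the 4 comparisons, with standard errors of limma as bars, filled points for calls at adjusted p under 0.05 and open points for the rest. The 3 embryonic globins lie at -1.37 or below in every daily step and between -7.24 and -5.75 over the span.

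The drop in level was larger on the last day than on the first in each embryonic gene, but the difference between the days was not called. The E15.5 against E14.5 change less the E13.5 against E12.5 change, both within slides, was -2.24 ± 0.54 for Hbb-y (limma, adjusted p = 0.102), -1.15 ± 0.34 for Hba-x (limma, adjusted p = 0.174) and -1.01 ± 0.38 for Hbb-bh1 (limma, adjusted p = 0.289). After adjustment limma called 0 of 5 members, against 2.34% of all genes. At an unadjusted limma p under 0.05 there were 3 of 5, and the unadjusted share of all genes was not counted for this difference. The Hbb-bh1 probe A_52_P305876 gave a difference between the days of -0.03 ± 0.38 (limma, adjusted p = 0.996), so the larger late fall was not seen in both of its probes.

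A difference between genes taken within an array does not depend on how the array is scaled by a single factor. The mean of the 3 embryonic globins less the mean of the 2 adult globins, set to 0 at the E12.5 mean, was 0.10 and -0.10 on the E12.5 arrays, -1.37 and -2.23 at E13.5, -4.22 and -3.62 at E14.5, and -6.68 and -7.53 at E15.5. The value stepped down at each stage with no overlap between stages. It changed by -1.80 at E13.5 against E12.5, by -2.12 at E14.5 against E13.5 and by -3.18 at E15.5 against E14.5, beside a standard deviation between duplicates of 0.49. Over the span it changed by -7.11. No test is given, since the genes were chosen for their names as embryonic and adult chains.

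The differences within an array moved further in the beta family than in the alpha family. From E12.5, Hbb-bh1 less Hbb-bt changed by -8.53 and Hbb-y less Hbb-bt by -8.06, with standard deviations between duplicates of 0.45 and 0.61, while Hba-x less Hba-a1 changed by -5.49, with one of 0.46. How the 2 embryonic beta-like genes moved against each other differed between the probes of Hbb-bh1. With the probe used elsewhere, Hbb-bh1 less Hbb-y changed by -0.62 at E13.5 against E12.5, by -0.45 at E14.5 against E13.5 and by 0.61 at E15.5 against E14.5, beside a standard deviation of 0.21. It was thus lowest at E14.5, and over the span it ended -0.47 from its E12.5 mean. With the probe A_52_P305876 the steps were -1.15, 0.11 and 1.07 in order of the days, beside a standard deviation of 0.36, so that the difference was lowest at E13.5 and ended 0.02 from its E12.5 mean.

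**Figure D3:**
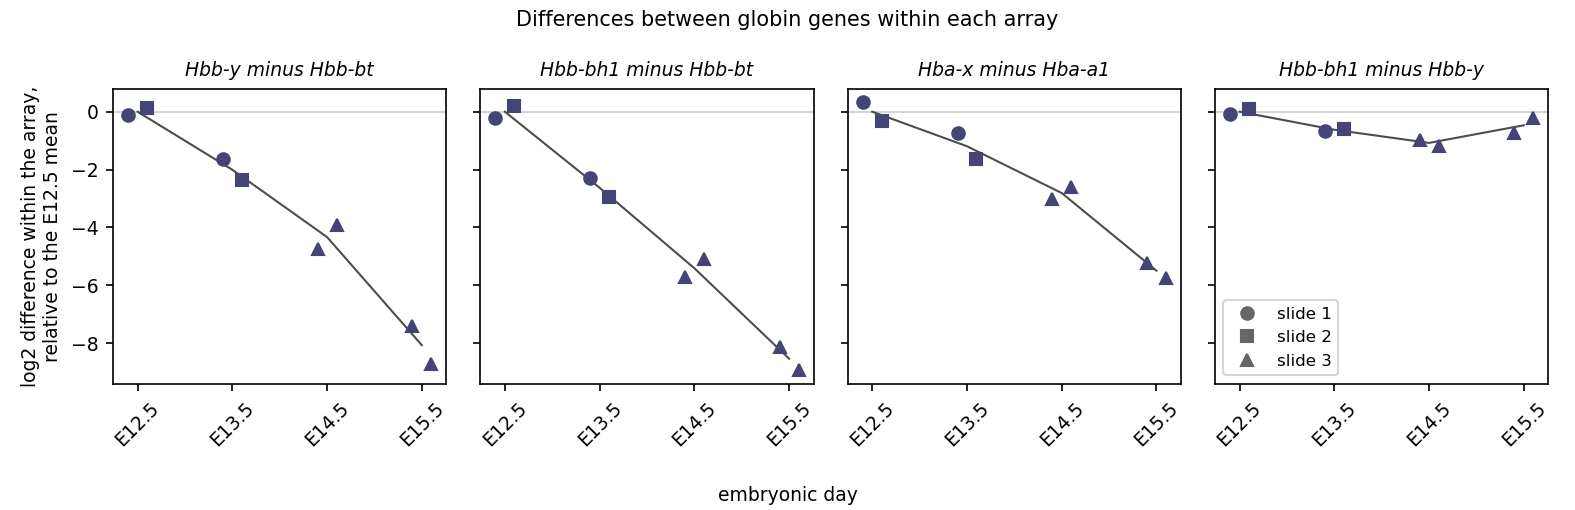
Difference in log2 level between 2 globin genes within each array (vertical axis, relative to its E12.5 mean) by embryonic day, with symbols for the slide and lines through stage means. The embryonic less adult differences step down to means of -8.06, -8.53 and -5.49 at E15.5, while Hbb-bh1 less Hbb-y stays within -1.17 and 0.09.

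The 2 probes of Hbb-bh1 fell at every step, by 1.99 and 2.52 at E13.5 against E12.5, and by 2.25 and 1.69 at E14.5 against E13.5. At E15.5 against E14.5 they were 8.02-fold and 5.83-fold lower. The first value in each pair is that of A_51_P179672, the brighter probe, which stands for the gene elsewhere. All 4 probes of Hbb-bt were called higher at E15.5 than at E12.5, by 0.80 ± 0.21 (limma, adjusted p = 0.0245) to 1.82 ± 0.25 (limma, adjusted p = 0.00291). They disagreed across slides: at E14.5 against E13.5 the 4 probes differed by -0.14, 0.22, 0.53 and 0.94, none of them called by limma (adjusted p from 0.0578 to 0.727). Within slides they were closer together, from 0.52 to 0.72 at E13.5 against E12.5 and from 0.06 to 0.55 at E15.5 against E14.5.

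**Figure D4:**
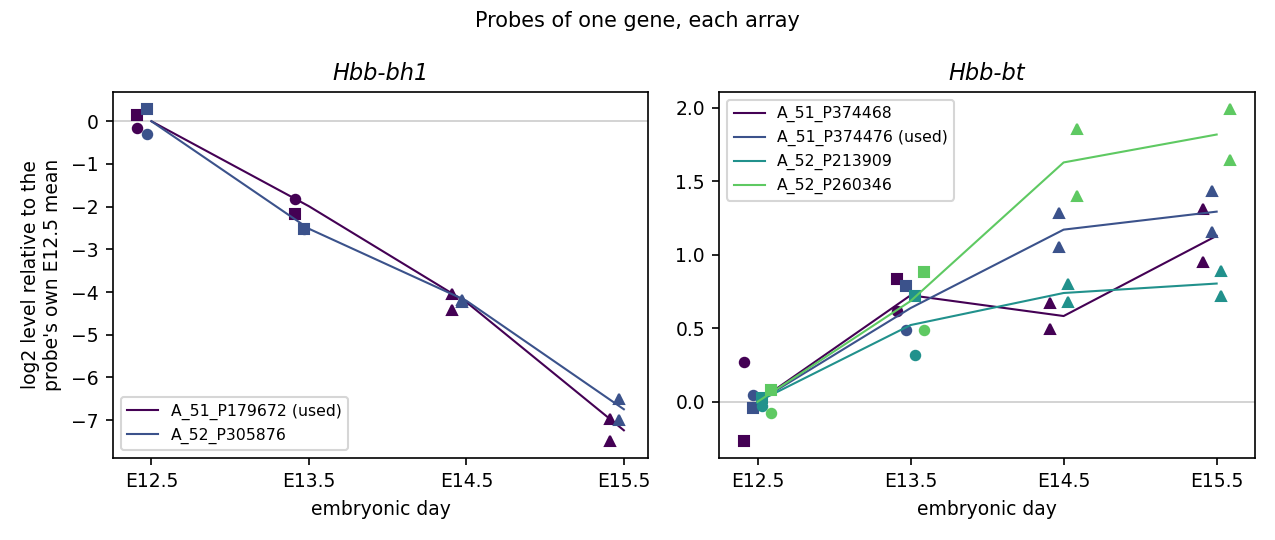
Level of each probe of Hbb-bh1 (left) and Hbb-bt (right) relative to the probe's own E12.5 mean (log2, vertical axes with different ranges) on each array by embryonic day, with circles for slide 1, squares for slide 2 and triangles for slide 3. Both Hbb-bh1 probes end near -7, and the 4 Hbb-bt probes end between 0.80 and 1.82.

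Other members of the globin superfamily differed less over the span than the 3 embryonic globins. Hbq1b, a theta-like gene of the alpha cluster, had log2 levels of -2.14 and -3.25 at E12.5, -2.68 and -3.92 at E13.5, -4.37 and -4.41 at E14.5, and -4.54 and -4.59 at E15.5. It was lower at each later stage on slide 3 than on either earlier slide, and it differed by over 1 log2 unit between slides 1 and 2. Hbq1b fell by 1.87 ± 0.49 over the span (limma, adjusted p = 0.0264). Its neighbour Hbq1a differed by -0.70 ± 0.29 (limma, adjusted p = 0.104).

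Cygb, cytoglobin of fibroblast-like cells, had log2 levels of 0.95 and 1.28 at E12.5, 1.24 and 1.69 at E13.5, 1.60 and 1.73 at E14.5, and 2.02 and 2.18 at E15.5, and it rose by 0.99 ± 0.23 (limma, adjusted p = 0.0174, and 0.0579 under median scaling). Mb, the myoglobin of striated muscle, did not stand well above background on any E12.5 or E13.5 array, and at E15.5 it was at least 2.72-fold higher than at E12.5 (limma, adjusted p = 0.0062). Ngb, neuroglobin, differed by -0.20 ± 0.55 (limma, adjusted p = 0.796). Of these 5 genes, 2 were called higher and 1 lower over the span, against 17.6% and 17.4% of all genes. Their median change was -0.20 beside -0.07 over all genes. None was called by limma at a daily step, against 3.98%, 12.5% and 0.655% of all genes in order of the days. At an unadjusted limma p under 0.05 there were 1, 2 and 1 of 5, against 17.1%, 31.9% and 9.52% of all genes.

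The mean of red cell markers was lower at E13.5 than at E12.5, as the embryonic globins were, and not lower still on the later days. Of 10 markers, 8 were tested, and their mean log2 level was -2.61 and -2.69 at E12.5, -3.39 and -3.70 at E13.5, -3.36 and -2.97 at E14.5, and -2.83 and -3.16 at E15.5. The mean was lower at E13.5 than at E12.5 on both slides, and all 4 arrays of slide 3 lay above both E13.5 arrays and below both E12.5 arrays. The mean of the 3 embryonic globins on the same arrays was 4.60 and 4.91 at E12.5, 3.29 and 3.04 at E13.5, 1.03 and 1.42 at E14.5, and -1.51 and -2.16 at E15.5. At E15.5 against E12.5, 1 marker was called higher and 3 lower of 8, with a median change of -0.22, beside -0.07 over all genes and 35.0% of all genes called. At E13.5 against E12.5, 2 of 8 were called lower and the median was -1.08, beside -0.06 over all genes and 3.98% of them called.

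Alas2, the erythroid enzyme that starts heme synthesis, had log2 levels of 1.84 and 2.10 at E12.5, 2.04 and 2.20 at E13.5, 2.14 and 2.37 at E14.5, and 2.88 and 2.49 at E15.5. It rose by 0.71 ± 0.22 over the span (limma, adjusted p = 0.0453, and 0.106 under median scaling). Slc4a1, the anion exchanger of the red cell membrane, fell by 0.90 ± 0.21 (limma, adjusted p = 0.0178), of which -1.14 came at E13.5 (limma, adjusted p = 0.0377). Klf1, a transcription factor that activates adult beta globin, fell by 1.52 ± 0.21 (limma, adjusted p = 0.00264), and Rhag, a membrane protein of the Rh complex, was at least 1.58-fold lower (limma, adjusted p = 0.00572) and not well above background after E12.5. Gata1, Epb42 and Hemgn were not called, with changes from -1.05 to 0.54. Ahsp had no named probe.

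**Figure D5:**
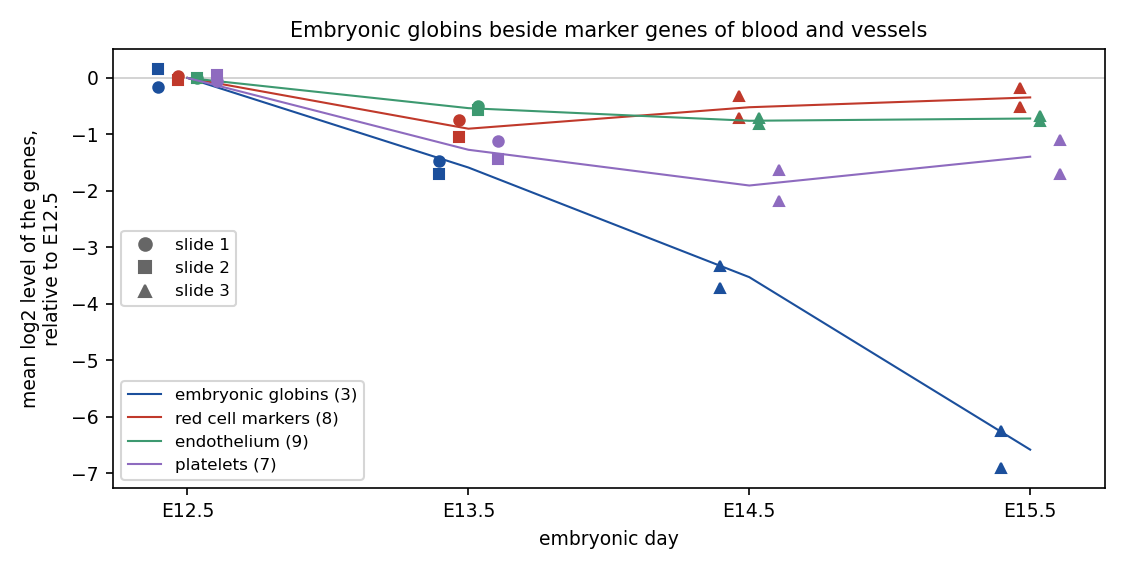
Mean log2 level of the 3 embryonic globins and of 3 marker lists (vertical axis, relative to each list's E12.5 mean) on each array by embryonic day, with the number of genes in the legend and symbols for the slide. The embryonic globins end more than 6 below E12.5, whereas red cell, endothelial and platelet markers stay within 2.2 of it.

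Markers of other cells that blood or vessels bring were followed on the same arrays. All 9 endothelial markers were well above background on all 8 arrays. Their mean log2 level was 0.88 and 0.88 at E12.5, 0.38 and 0.30 at E13.5, 0.07 and 0.17 at E14.5, and 0.21 and 0.11 at E15.5. Of the 9, 3 were called lower over the span, against 17.4% of all genes, among them Kdr, a receptor for vascular growth factor, by -2.59 ± 0.19 (limma, adjusted p = 3e-04), and Cldn5, a tight junction protein, by -1.86 ± 0.18 (limma, adjusted p = 0.000702). The median change of the list was -0.30.

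Platelet and megakaryocyte markers had a mean log2 level of -2.08 and -1.98 at E12.5, -3.14 and -3.46 at E13.5, -4.21 and -3.66 at E14.5, and -3.12 and -3.72 at E15.5. They were lower at every later stage than at E12.5, without a further fall from E14.5 to E15.5. Over the span 4 of 7 were called lower and 1 higher, against 17.4% of all genes lower and 17.6% higher, with a median change of -1.89. Ppbp, a platelet chemokine, fell by 2.65 ± 0.49 (limma, adjusted p = 0.00781), and Gp1ba, a platelet adhesion receptor, was at least 3.04-fold lower (limma, adjusted p = 0.00307). Among macrophage markers 2 of 7 were called higher, against 17.6% of all genes, and 0 lower. These were Adgre1 by 1.41 ± 0.41 (limma, adjusted p = 0.0369) and Mrc1 by 0.82 ± 0.22 (limma, adjusted p = 0.0286), and neither was called under median scaling (0.0576 and 0.0975). Of hepatocyte markers only Afp and Fgb were tested, and both were called higher, Afp by 5.18 ± 0.40 (limma, adjusted p = 0.000356) and Fgb by 3.16 ± 0.92 (limma, adjusted p = 0.0377). Fgb was well above background on only 1 of 2 arrays at E12.5, so that the size of its change is uncertain. Alb, Apoa2 and Ttr were well above background on 4, 3 and 0 of 8 arrays and did not pass the filter. The part of any of these cells in the globin levels was not tested.

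Genes that serve haemoglobin did not move as a block over the span. Of 20 tested genes of heme synthesis and iron supply, 6 were called higher and 3 lower, against 17.6% of all genes higher and 17.4% lower, with a median change of 0.00 beside -0.07 over all genes. The largest called changes were those of Tfr2, a transferrin receptor that senses iron, by 2.54 ± 0.24 (limma, adjusted p = 0.000739), and Slc25a37, the mitochondrial iron importer mitoferrin, by 2.41 ± 0.24 (limma, adjusted p = 0.00084). Under median scaling 3 were called higher and 3 lower. Of 19 tested genes of the red cell membrane, 4 were called higher and 6 lower, to be set against the same 17.6% and 17.4%, with a median of -0.09. Art4, which carries the Dombrock blood group, rose by 2.67 ± 0.22 (limma, adjusted p = 0.000436), and Rhd, an Rh blood group protein, by 2.40 ± 0.36 (limma, adjusted p = 0.00359).

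Of 15 tested enzymes and chaperones of red cells, 3 were called higher and 2 lower (3 and 0 under median scaling), against 17.6% and 17.4% of all genes, with a median of 0.07. The largest called change was that of Isg20, an exonuclease, by 2.87 ± 0.31 (limma, adjusted p = 0.00116). Among 16 erythroid transcription factors and their partners, 1 was called higher and 3 lower, beside the same shares of all genes, with a median of 0.23. Bach1, a heme-sensing repressor of globin genes, had log2 levels of 0.06 and 0.22 at E12.5, -0.40 and -0.26 at E13.5, -2.23 and -2.17 at E14.5, and -2.83 and -3.52 at E15.5, and it fell by 3.32 ± 0.26 (limma, adjusted p = 0.00035). Most of that difference lay at the step from slides 1 and 2 to slide 3. Stat5a, which carries the erythropoietin signal, rose by 2.77 ± 0.27 (limma, adjusted p = 0.00082).

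Regulators known from the switch between globin genes were measured in the same whole gonads, where other cells also express many of them. Of 23 tested, 2 were called higher and 8 lower over the span, against 17.6% and 17.4% of all genes, with a median change of -0.82 beside -0.07 over all genes. Bcl11a, a repressor of embryonic globin genes, had log2 levels of -1.02 and -1.01 at E12.5, -1.18 and -1.33 at E13.5, -3.46 and -2.83 at E14.5, and -3.14 and -3.39 at E15.5. It fell by 2.25 ± 0.25 (limma, adjusted p = 0.00126), with -1.89 of it at the step across slides. Hmga2, a chromatin protein of the fetal let-7 programme, fell by 3.65 ± 0.27 (limma, adjusted p = 0.000304), and its duplicates stepped down at every stage. Under quantile scaling 4 of the 23 were called higher and 10 lower. In the comparisons within slides limma called 0 of the 23 in either direction, against 3.98% of all genes at E13.5 and 0.655% at E15.5. At an unadjusted limma p under 0.05 there were 7 of 23 at E13.5, against 17.1% of all genes, and 2 of 23 at E15.5, against 9.52%.

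The genes whose profile over the 8 arrays was closest to that of a member were found by the root mean square difference of levels centred on each gene's mean. Among the members, Hbb-bh1 and Hbb-y differed by 0.41, Hbb-y and Hba-x by 0.51, and Hbb-bh1 and Hba-x by 0.57, while Hbb-bt and Hba-a1 differed by 0.73. Of the 21986 genes tested, 13474 had a symbol, and only genes with a symbol were compared with the members. Among them, no gene outside the globins was as close to Hbb-bh1 or Hbb-y as the other embryonic globins were. Among the genes closest to Hbb-y were Sox2 at 0.69, Dppa5a at 0.74, Dppa3 at 0.95 and Tcl1 at 1.07. Among those closest to Hbb-bh1 were Sox2 at 0.76, Dppa5a at 0.85 and Lhx1 at 1.02.

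Hba-x was nearer to Dppa5a, at 0.38, and to Sox2, at 0.48, than to the other embryonic globins, followed by Tcl1 at 0.64 and Nr5a2 at 0.69. Dppa5a, a germ cell and stem cell gene, had log2 levels of 6.72 and 6.70 at E12.5, 6.01 and 6.27 at E13.5, 3.67 and 4.05 at E14.5, and 1.98 and 1.60 at E15.5. Sox2, a transcription factor of stem cells and germ cells, had 0.79 and 0.32 at E12.5, -0.23 and -0.11 at E13.5, -2.01 and -2.60 at E14.5, and -5.37 and -4.77 at E15.5, where 1 of 2 arrays was well above background. Both stepped down at every stage, as Hba-x did.

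For the adult genes, whose profiles span less, the nearest genes lay closer. Nearest to Hbb-bt were Jund at 0.07, Rwdd4a at 0.08 and Pmvk, Tlcd1 and Gstm5 at 0.09 each, and nearest to Hba-a1 were Tkfc at 0.17, Zbtb12 at 0.17, Gse1 at 0.20 and Cadm3 and Rhoc at 0.21 each. Tkfc, a kinase of small sugars, had -1.26 and -0.41 at E12.5, -1.18 and -0.38 at E13.5, -1.15 and -1.51 at E14.5, and -1.25 and -0.95 at E15.5, with the same rise from slide 1 to slide 2 as Hba-a1. Likeness over 8 arrays that share slides and scaling is a description.

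In the authors' deposited table, which holds a ratio per stage and no separate arrays, the log2 difference of E15.5 from E12.5 was -7.56 for Hbb-bh1, -7.09 for Hbb-y and -6.07 for Hba-x. It was 0.97 for Hbb-bt and -0.58 for Hba-a1 in the authors' deposited table. The median over all genes in the authors' deposited table shifted by -0.39 over the same span, so these values lie lower throughout than those scaled to the 75th percentile.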

How the data were processed

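Transcript levels were measured with 1-colour Agilent arrays, 2 per stage and 8 in all. The deposited scanner files hold a linear Cy3 intensity for each spot. Background had been subtracted within the array by Agilent Feature Extraction, per the file headers. The submitters' processing notes name version 9.5 of that software, while the file headers give 9.1.3.1 for E12.5 and E13.5 and 9.5.3.1 for E14.5 and E15.5. The authors also deposited a table with a linear ratio per probe and stage, and how its probes were centred and its columns scaled is unknown. Its column medians were 1.14, 1.003, 0.898 and 0.859 from E12.5 to E15.5.

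Spots of a probe were averaged without outlier spots, and log2 values were scaled by subtracting the 75th percentile of each array. Of 41174 probes, 28188 passed the filter, which asked for 1 or more stages with both arrays well above background. The probe of highest mean stood for each of 21986 genes, named through RefSeq accessions. limma 3.58.1 in R 4.3.3 fitted a mean per stage to all 8 arrays, which left 4 residual degrees of freedom, plus 2.57 from the moderated variance. P-values were adjusted over all 21986 genes with the Benjamini-Hochberg method, a call is an adjusted p under 0.05, and values after ± are standard errors from limma. "At least" marks a gene not well above background at its dimmer stage, set against the lowest signal well above background or its own value where higher.

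The number of arrays limits the precision. The fit was tested on simulated data before use. The members and all lists were chosen with earlier results of these data known. All members and other globins are named. From each list the 2 called genes with the largest span change are named, and for each member the 5 genes with a symbol nearest in profile, leaving out globins. A few genes that these rules name are not reported here. Further red cell markers and Bach1's and Bcl11a's levels by stage are given for their roles. Array numbers were not taken to pair arrays: deviations of same-numbered arrays correlated at 0.65 between E12.5 and E13.5, which share slides, at -0.59 between E14.5 and E15.5, and between -0.08 and 0.07 otherwise. Scaling, background correction, filter, probe choice, blocks and single arrays left out were tried as alternatives. Background correction by normexp used median spot signals, since the files give no mean signal. Probe sequences and proteins were not used here.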

Additional observations from a re-analysis of the deposited data

How the results depend on the processing

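Over the span, the falls of Hbb-bh1, Hbb-y and Hba-x were called under every alternative that gave a test, and the rise of Hbb-bt under all but the normexp background (adjusted p = 0.0511). That background was drawn off by 3 spots on array 2 of E13.5, and with them replaced, an alternative chosen after seeing the data, Hbb-bt had an adjusted p of 0.0012. Hba-a1 reversed to 0.76 under quantile scaling. The daily steps depended more on the settings, and the cause was not tested. Median scaling put the median of all genes at -0.13 at E15.5 against E14.5 and at -0.11 over the span, and the authors' deposited table put it at -0.23 and -0.39, and at -0.18 at E13.5 against E12.5.

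The number of members called at E13.5 against E12.5 was 2, and it was 1 with the array number as a replicate block, with median scaling or with no filter, and 0 with normexp or with only the arrays compared. At E14.5 against E13.5 it was 3, all lower, and 2 with the replicate block, with no filter or with only the arrays compared, and 0 with normexp. Under quantile scaling it was 3, with 2 lower and 1 higher, as Hbb-y lost its call and Hbb-bt gained one. At E15.5 against E14.5 it was 3, and 0 with normexp or with only the arrays compared. Where limma called 0 members, between 2 and 4 passed at an unadjusted p under 0.05. Leaving out 1 array gave 0 to 2, 0 to 3 and 0 to 3 members for the daily steps in order, and 4 each time for the span.

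All genes called at E13.5 against E12.5 numbered 874, and 544 with the replicate block, 419 with no filter, 2 with normexp, 555 with normexp and the 3 spots replaced, 139 with only the arrays compared, and 188 to 695 without 1 array. At E14.5 against E13.5 they numbered 2745, and 1611 with the replicate block, 872 with no filter, 0 with normexp (5762 at an unadjusted p under 0.05 by limma), 779 with only the arrays compared, and 220 to 2091 without 1 array. At E15.5 against E14.5 they numbered 144, and 22 when all 8 arrays had to be above background, 89 with the replicate block, 604 with numbers crossed in the replicate block (chosen after seeing the data), 226 with the slide as a block, 231 with normexp and the spots replaced, 0 with normexp (318 at an unadjusted p under 0.05), 0 with only the arrays compared (2223 unadjusted), and 0 to 78 without 1 array. Over the span they numbered 7703, and 1153 with normexp and 3492 to 7934 without 1 array, with 4700 without array 2 of E12.5, 4965 without array 1 of E15.5 and 3492 without array 2 of E15.5.

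The embryonic less adult difference was -2.66 at E14.5 against E13.5 and -7.96 over the span under quantile scaling, against -2.12 and -7.11. Without 1 array it lay between -2.23 and -1.37, between -2.56 and -1.69, and between -3.61 and -2.76 for the daily steps in order, and between -7.53 and -6.68 over the span.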
